A study of Mus musculus with 6 samples.

Results

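The CXC chemokine ligands are small secreted proteins that draw leukocytes along gradients, named for a pair of cysteines near the amino end that are parted by 1 other residue. The ligands studied were Cxcl1, Cxcl2, Cxcl3, Cxcl9, Cxcl10, Cxcl12, Cxcl13, Cxcl14, Cxcl16 and Ppbp. A probe set, the group of short probes that reads 1 transcript on the array, was taken where the Mouse430_2 annotation gave 1 of these 10 symbols as its sole gene. That gave 18 of the 45101 probe sets on the array, with 6 genes read by more than 1 probe set.

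Most CXC ligands bind sulphated sugars on cells and matrix and act through G protein-coupled receptors on the responding cell. Those with the motif glutamate-leucine-arginine (ELR) before the cysteines, here Cxcl1, Cxcl2, Cxcl3 and Ppbp, attract neutrophils through CXCR2 and are typically made after NF-kB activation. Cxcl9 and Cxcl10 are induced by interferon gamma and attract activated T cells and NK cells through CXCR3, which makes them a standard readout of T cell inflammation in tumours. Cxcl12 is made by fibroblasts and endothelium and binds CXCR4, Cxcl13 draws B cells through CXCR5 into lymphoid follicles, and Cxcl16 is a membrane-anchored ligand of CXCR6 that metalloproteases release. Cxcl14 is made by epithelia and fibroblasts.

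RNA came from 6 samples of cancer stroma from male B6 mice, 3 Pdia4-/- (KO) and 3 WT, 4 weeks after tumour cells were placed under the skin. The growth protocol gives LLC (Lewis lung carcinoma) as the tumour line but the design text gives GK1, and which of them it was could not be settled. Pdia4 encodes a disulphide isomerase of the endoplasmic reticulum. The labels give the tumour cells no genotype of their own, name no Cre or promoter, and state no ages, littermates or pooling. The study's question was which pathways Pdia4 acts on in the stroma.

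The Pdia4 probe set 1416497_at read 2324, 1521 and 1402 on KO replicates 1, 2 and 3, against 3942, 2766 and 4104 on WT replicates 1, 2 and 3, in the linear signal units of the array software. All KO signals were the lower ones, but Pdia4 was called Present on all 6 arrays, and the log2 difference was -1.06 (SE 0.28, limma adjusted p = 0.161). The second Pdia4 probe set, Present on 1 of 6 arrays, was not tested. Whether these probes lie inside the deleted part of Pdia4 is not stated, so they do not check the labels fully. Between 47.0% and 49.2% of probe sets were Present per array. KO replicate 3 carries another code in its column headers than the other 5 arrays, with no stated meaning, and across tested probe sets its log2 signals correlated with theirs at r = 0.889 to 0.946, against 0.941 to 0.970 among the other 5. Since it is the 1 array with that code, fitting the code as a term would give the same KO minus WT difference as leaving the array out. Each ligand's difference is given with KO replicate 3 and also without it, over the 5 arrays that share a code. All 12 listed fibroblast markers and 11 of 12 macrophage markers were Present on every array. Of 9 epithelial markers 3 were, while Epcam, Krt15 and Krt19 were Present on 0 arrays, and Krt8, an epithelial keratin, read 3307, 2451 and 850 in KO and 7601, 6475 and 5591 in WT. Of the 4 tested epithelial markers, 2 had a difference below 0 and 2 above.

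All CXC ligands but Cxcl14 had a tested probe set on which the KO arrays and the WT arrays did not overlap, and on all of these but that of Cxcl13 the KO arrays were the higher. The fold was 5.07 for Cxcl9 on 1418652_at and 3.32 on 1456907_at, 4.07 for Cxcl10, 3.6 for Cxcl1 on 1457644_s_at and 3.49 for Ppbp, while Cxcl13 differed in the other direction. The 95% intervals of these Cxcl9, Cxcl10, Cxcl1 and Ppbp probe sets overlapped, and their order changed with the array left out. Without KO replicate 2 the log2 difference was 2.35 for Cxcl10, 2.27 for Cxcl1 and 2.24 for Cxcl9, and without KO replicate 3 Ppbp lay above Cxcl10 and Cxcl1. No ligand passed the test across all probe sets. A probe set was tested if 3 or more of the 6 arrays called it Present, as held for 14 of the 18, and limma called 0 of the 14 at an adjusted p under 0.05, where it called 0.0272% of all 22063 tested probe sets (6). At an unadjusted p under 0.05, 12 of the 14 were higher in KO and 1 was lower, against 9.99% and 10.2% of all tested probe sets. Over all 18, every KO array was above every WT array in 12, below in 2, and 4 overlapped. Of the 2 below, 1 was the Cxcl12 probe set 1439084_at, Absent on all 6 arrays, whose signals carry no direction. Among the 14 tested, 13 did not overlap, against 30.6% of all tested probe sets (13.5% with KO above and 17.1% with KO below). The median log2 difference of the 14 was 1.40, and 1.00 without KO replicate 3, beside -0.05 and -0.03 for all tested probe sets. Probe sets of 1 gene share their transcript, and in bulk RNA fewer cells of a type and less RNA per cell cannot be told apart. An exact permutation test of 3 arrays against 3 can reach no p below 0.1, the value it gave for each tested ligand except Cxcl14 (0.2).

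**Figure D1:**
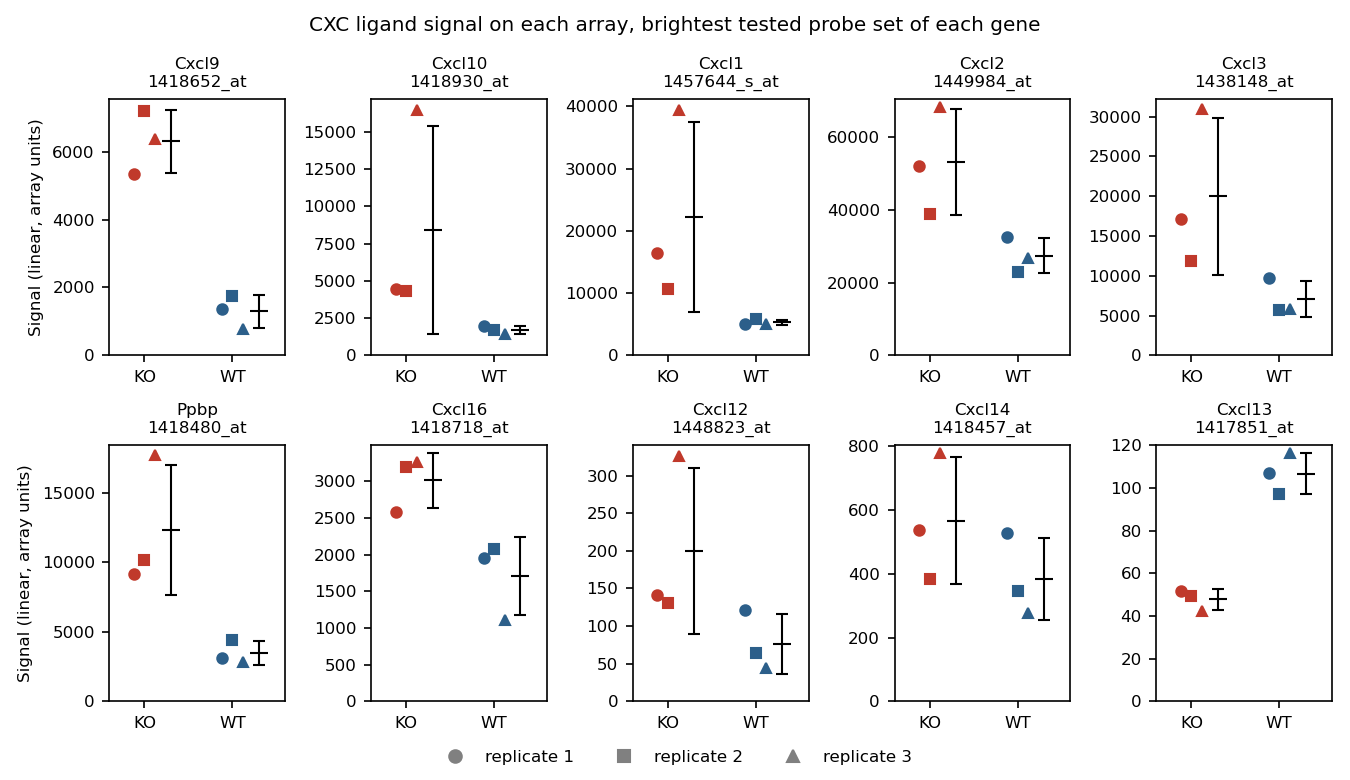
Signal of each CXC ligand, by its tested probe set of highest mean log2 signal (y axis, linear array units, each panel on its own scale from 0) on 3 KO arrays (red) and 3 WT arrays (blue), with symbol shape for the replicate number and black bars for the mean ± SD. The groups overlap for Cxcl14 alone, Cxcl13 is lower on the KO arrays, and KO replicate 3 is far above the other KO arrays for Cxcl10 and Cxcl1 but not for Cxcl9.

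Cxcl9, the interferon-induced CXCR3 ligand, read 5337, 7193 and 6369.6 on KO replicates 1, 2 and 3 with probe set 1418652_at, against 1358, 1756 and 789 on WT replicates 1, 2 and 3. The KO arrays lay close together, and the lowest of them was well above the highest WT array. The group means were 6300.1 ± 929.9 in KO and 1301 ± 486 in WT (SD, n = 3 each), a log2 difference of 2.34 (SE 0.32, 95% interval 1.59 to 3.09, limma adjusted p = 0.107). It was 2.33 without KO replicate 3. The second Cxcl9 probe set, 1456907_at, read 782, 614 and 592 in KO and 248.9, 199.6 and 156 in WT. It separated the groups the same way, with a difference of 1.73 (SE 0.25, adjusted p = 0.122) and 1.81 without KO replicate 3. These 2 probe sets were the only ligand probe sets that passed under any of 16 other settings. With 50 added to each signal before taking log2, limma's adjusted p was 0.0302 and 0.0461, and with a trended, robust variance prior the first had 0.0391.

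Cxcl10, the other interferon-induced CXCR3 ligand here, read 4481, 4331 and 16477 in KO, against 1940.2, 1708 and 1431 in WT. KO replicates 1 and 2 were nearly equal and lay above each WT array, and KO replicate 3 stood far above both. Means were 8429.5 ± 6969.8 in KO and 1693 ± 255 in WT (SD, n = 3 each), with a log2 difference of 2.03 (SE 0.51, 95% interval 0.84 to 3.21, limma adjusted p = 0.155). The fold was 4.07 with KO replicate 3 and 2.62 without it (log2 difference 1.39, limma adjusted p = 0.111). Cxcl11 lies next to Cxcl10 on chromosome 5, and RefSeq lists it as a transcribed pseudogene in the C57BL/6J reference. On probe set 1419697_at it had a difference of 0.72 (adjusted p = 0.247), with overlapping groups of 446, 335 and 686 in KO and 348, 278 and 239 in WT. Its other tested probe set, 1419698_at, differed by 0.26 (limma adjusted p = 0.616). There the groups overlapped at low signals, 32.2, 40.1 and 48.7 in KO and 35.1, 23.4 and 44.3 in WT.

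Of the 10 ligands 9 had a promoter window in RefSeq (GRCm38.p6), running from 250 bases before the transcription start to 50 after. Both strands were searched for the STAT motif GAS (TTCNNNGAA, in 8.3% of 32851 windows), the interferon-response motif ISRE (GAAA, any 2 bases, GAAA; 3.44%), the NF-kB motif (GGG, any 2 bases, TTTCC; 1.63%) and the AP-1 motif (TGANTCA, 7.81%). No 2 matches overlapped in the windows of the ligands. The stretch before the start of Cxcl10 is shown because it held a match to ISRE at position -213 and one to AP-1 at -74, in capitals, on the minus strand of chr5:92348890-92349139.
Cxcl10: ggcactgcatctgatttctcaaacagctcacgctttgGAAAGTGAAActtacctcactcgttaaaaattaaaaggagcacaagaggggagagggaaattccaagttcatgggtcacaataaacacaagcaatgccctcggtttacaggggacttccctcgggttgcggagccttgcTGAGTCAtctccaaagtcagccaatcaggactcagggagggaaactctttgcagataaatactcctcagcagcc
The Cxcl9 window held neither GAS, ISRE nor the NF-kB letters, and an AP-1 match at 32 bases into the transcript. ISRE and GAS were also found in the Cxcl14 window. A match is a description of these letters and not a measured site.

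The ELR ligand Cxcl1, a neutrophil attractant, was read by 3 probe sets. Probe set 1457644_s_at gave 16415, 10626 and 39461 on KO replicates 1, 2 and 3 and 5005, 5817 and 5055 on WT replicates 1, 2 and 3. WT arrays were within a narrow range, whereas the KO arrays spread widely with KO replicate 3 on top and KO replicate 2 lowest. The log2 difference was 1.85 (SE 0.45, limma adjusted p = 0.151) and 1.32 without KO replicate 3. Probe set 1419209_at gave 16643, 9159 and 34566 in KO and 4311, 5781 and 6221 in WT, and 1441855_x_at gave 5357, 4001 and 13004 in KO and 2407, 2613 and 2686 in WT. Their differences were 1.70 and 1.35 (SE 0.46 and 0.42), and 1.20 and 0.85 without KO replicate 3. The suffixes _s and _x mark probe sets whose probes can match related transcripts, and the authors' deposited table names 1457644_s_at as CXCL2, so Cxcl1 and its close paralogues may share signal there.

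Cxcl2, the ELR ligand that macrophages release on inflammatory stimulation, was read by 1 probe set. It gave 52139, 38946 and 68196 in KO and 32398, 22997 and 26844 in WT. The groups did not overlap, though KO replicate 2 was not far above WT replicate 1. Means were 53094 ± 14648 in KO and 27413 ± 4727 in WT (SD, n = 3 each), a log2 difference of 0.93 (SE 0.27, 95% interval 0.30 to 1.56, limma adjusted p = 0.169), and 0.73 without KO replicate 3. Cxcl3, a further ELR attractant of neutrophils, read 17154, 11837 and 30932 in KO, against 9659, 5724 and 5882 in WT. Again KO replicate 3 was highest, KO replicate 2 lowest among KO arrays, and WT replicate 1 highest among WT arrays. Its difference was 1.42 (SE 0.39, adjusted p = 0.163), and 1.05 without KO replicate 3.

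The stretches of 120 bases before the starts of Cxcl1 (chr5:90891125-90891244), Cxcl2 (chr5:90903779-90903898) and Cxcl3 (chr5:90785981-90786100) are all on the plus strand. They are shown because, of the 9 windows, only these 3 held the NF-kB letters searched, marked in capitals. Other forms of the NF-kB motif were not searched in any window. RefSeq is the source and GRCm38.p6 the build.
Cxcl1: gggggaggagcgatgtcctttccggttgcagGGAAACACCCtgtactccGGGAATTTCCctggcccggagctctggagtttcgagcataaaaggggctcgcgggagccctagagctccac
Cxcl2: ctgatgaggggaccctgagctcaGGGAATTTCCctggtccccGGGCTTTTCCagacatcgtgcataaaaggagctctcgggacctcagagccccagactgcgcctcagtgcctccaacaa
Cxcl3: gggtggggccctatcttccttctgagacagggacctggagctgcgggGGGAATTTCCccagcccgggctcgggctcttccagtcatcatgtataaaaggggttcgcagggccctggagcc
The run GGGAATTTCC was in all 3, starting at -71 in Cxcl1, -97 in Cxcl2 and -73 in Cxcl3. Cxcl1 held a second match on the other strand at -89 (GGAAACACCC) and Cxcl2 a second at -78 (GGGCTTTTCC). Ppbp, the remaining ELR ligand, had none in its window and an AP-1 match at -204.

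Ppbp, the precursor of a neutrophil attractant stored in platelets, read 9135, 10195 and 17713 in KO, against 3092, 4442 and 2824 in WT. Every KO array lay far above every WT array, and KO replicate 3 was the highest. The log2 difference was 1.80 (SE 0.32, 95% interval 1.06 to 2.54, limma adjusted p = 0.13), and 1.51 without KO replicate 3. Platelet markers beside it were Pf4, itself a CXC ligand stored in platelets, with 21964, 17412 and 30295 in KO and 19809, 15778 and 10623 in WT, and the summed signal of the 9 listed platelet genes, which is almost all Pf4, 18653 to 31493 in KO and 11673 to 20704 in WT. Both overlapped between the groups. Itga2b, the platelet integrin, and Vwf, which endothelium makes too, were Present on all 6 arrays, while Gp6, Gp9 and Treml1, also platelet genes, were Present on 0. Of the 5 platelet genes tested, Vwf alone did not overlap, with 219, 317 and 389.7 in KO and 170.2, 207 and 145 in WT, where 12.7% of all 11357 genes, each by 1 probe set, had every KO array above every WT array and 20.5% had it below. The part of platelets in the Ppbp difference was not tested.

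Cxcl5, an ELR ligand that lies beside Ppbp, gave 568, 314 and 332 in KO and 159, 223 and 167 in WT. The groups did not overlap, but in contrast to the other ELR ligands KO replicate 1 was the highest array and KO replicate 3 was not. Its log2 difference was 1.11 (SE 0.29, adjusted p = 0.161), and 1.22 without KO replicate 3. Pf4 differed by 0.60 (SE 0.31, adjusted p = 0.309). Of the 5 further CXC ligands listed, limma called 0 of the 3 that were tested (0.0352% of all genes were called), and Cxcl15 and Cxcl17 did not have the Present calls to be tested.

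**Figure D2:**
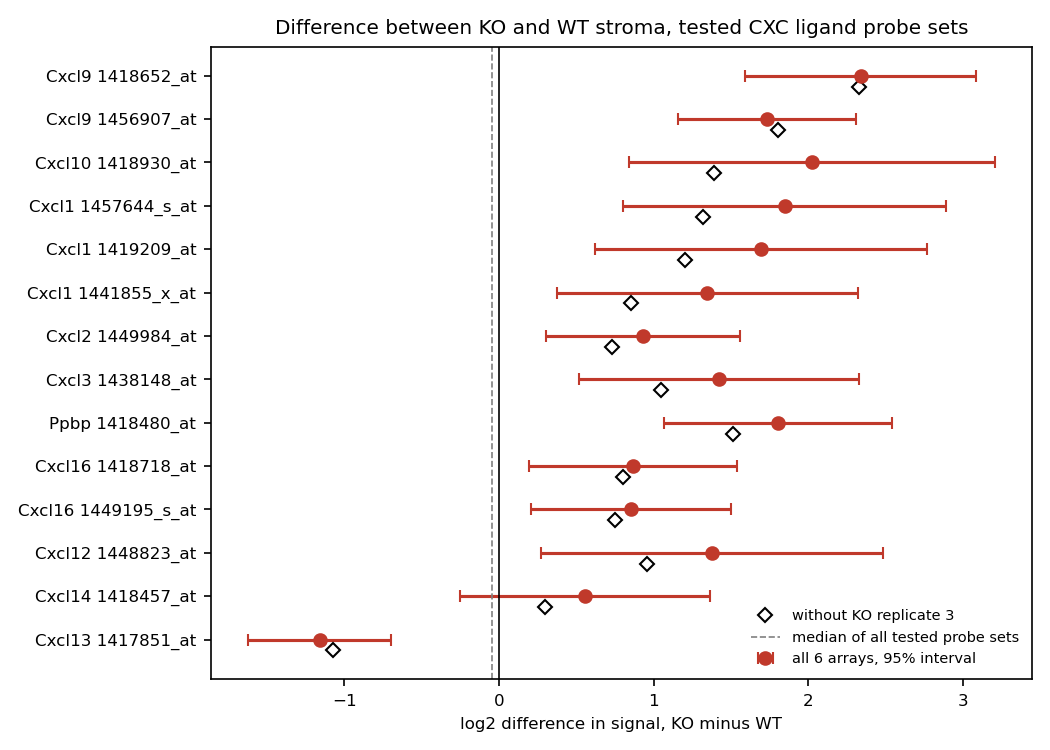
Log2 difference, KO minus WT, of the 14 tested CXC ligand probe sets (x axis), grouped by role, with filled points and 95% limma intervals for all 6 arrays, open diamonds for the value without KO replicate 3, and a dashed line at the median of all tested probe sets. Cxcl13 lies below 0, the interval of Cxcl14 spans 0, and the Cxcl9 values stay nearly in place without KO replicate 3 while those of Cxcl10, Cxcl1 and Cxcl12 move toward 0.

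Cxcl16, the membrane-anchored ligand of CXCR6, was read by 2 probe sets with nearly equal differences. Probe set 1418718_at gave 2585, 3191 and 3263 in KO and 1949.8, 2071 and 1103 in WT, and 1449195_s_at gave 2554, 2316 and 3041 in KO and 1909, 1555 and 1021 in WT. On both, WT replicate 3 was the lowest array, and the KO arrays were close to each other. The log2 differences were 0.86 and 0.86 (SE 0.29 and 0.28, limma adjusted p = 0.19 and 0.185), and 0.80 and 0.75 without KO replicate 3.

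Its receptor Cxcr6, found on T cell and NK cell subsets, held 1 of the 6 probe sets called in the whole table. Probe set 1425832_a_at read 254, 274 and 250.4 in KO and 67.4, 75.7 and 65.7 in WT, tight within each group and far apart between them. It was Present on all 3 KO arrays and on 1 WT array, so it entered the test through KO, the group where it is high. Its log2 difference was 1.90 (SE 0.19, limma adjusted p = 0.0479), and without KO replicate 3 the adjusted p was 0.0703 with a difference of 1.92. Over the whole table, leaving out 1 array left 0 probe sets called, or 2 where WT replicate 2 was left out. The other Cxcr6 probe set, 1422812_at, gave 499.6, 297 and 183 in KO and 58.5, 55.9 and 89.5 in WT, a difference of 2.18 (adjusted p = 0.13). There KO replicate 1 was highest and KO replicate 3 lowest of the KO arrays, and 2 of 3 WT arrays called it Present. T cell and NK cell markers, whose summed signal was also higher on every KO array than on every WT array, are given with Ifng, and their part in the Cxcr6 values was not tested.

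Of the metalloproteases that cut Cxcl16 or other ligands, listed with further processing enzymes, Mmp12, Mmp2, Mmp8 and Mmp9 had log2 differences of 1.45, 1.24, 1.38 and 1.27. The groups of Mmp9 overlapped and those of the other 3 did not. None passed the test, and 4 of 9 tested genes of the list had an unadjusted p under 0.05, all higher in KO, against 8.88% of all genes higher and 11.8% lower. Adam10 and Adam17, the sheddases of Cxcl16, differed by -0.17 and 0.25 (SE 0.22 and 0.23), with overlapping groups. They are outside the rule for naming genes and were chosen after their values were seen.

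Cxcl12, the CXCR4 ligand of stromal cells, had a single tested probe set of 3. Probe set 1448823_at read 142, 130.1 and 326 in KO and 121, 63.9 and 44.2 in WT. KO replicates 1 and 2 lay only just above WT replicate 1, and KO replicate 3 stood well above both. The log2 difference was 1.38 (SE 0.47, 95% interval 0.27 to 2.49, limma adjusted p = 0.195), and 0.96 (fold 1.94, against 2.6 with all 6 arrays) without KO replicate 3. Probe set 1417574_at was Present on KO replicate 3 alone and gave 11.4, 46.9 and 63.7 in KO and 56.6, 34.5 and 21.5 in WT, with overlap. Probe set 1439084_at was Absent on all 6 arrays, at 10.3, 12.5 and 10 in KO and 42.9, 40.9 and 33.2 in WT, and signals that are not above background carry no direction.

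Cxcl14, made by epithelia and fibroblasts, did not separate the groups on either probe set. Probe set 1418457_at gave 538, 382 and 779 in KO and 527, 347 and 276 in WT, with KO replicates 1 and 2 near WT replicates 1 and 2. The difference was 0.56 (SE 0.35, 95% interval -0.25 to 1.36, limma adjusted p = 0.374), and 0.30 without KO replicate 3. Probe set 1418456_a_at was not tested, with 216, 269 and 321 in KO and 316, 226 and 240.1 in WT. The summed signals of 12 fibroblast markers were 43059 to 57418 in KO and 65540.4 to 67923 in WT, and those of 9 epithelial markers 2594 to 6709.5 in KO and 11676 to 15617 in WT. The fibroblast and epithelial sums were lower on every KO array than on every WT array, but they rest on few genes. Col3a1 made up most of the fibroblast sum. Of 12 fibroblast markers 4 had every KO array above every WT array and 4 below, against 12.7% and 20.5% of all genes. The median log2 difference of the 12 was 0.53. Krt8 and Krt18 made up most of the epithelial sum and were the 2 of 4 tested markers with every KO array below (20.5% of all genes). Cdh1 differed by 0.33 with overlap. Endothelial markers summed to 1914 to 2446 in KO and 1303 to 1623 in WT, and pericyte markers to 2025 to 2141 in KO and 1579 to 2260.3 in WT, with Cspg4, Myh11 and Des Present on 0 arrays. Their part in the Cxcl12 and Cxcl14 values was not tested.

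Cxcl13, the B cell attractant of lymphoid follicles, was the 1 ligand with a tested probe set lower on all KO arrays. Probe set 1417851_at gave 51.6, 49.5 and 42.2 in KO and 107, 96.9 and 116 in WT. Each group was tight, and the highest KO array lay well below the lowest WT array. The log2 difference was -1.16 (SE 0.20, 95% interval -1.62 to -0.70, limma adjusted p = 0.13), and -1.07 without KO replicate 3. At these low signals it shrank to -0.68 with 50 added to each signal before taking log2. KO replicate 2 was the only KO array that called the probe set Present, and it entered the test through the 3 Present calls in WT, the group where it is high. The other probe set, 1448859_at, was not tested and gave 37.1, 115 and 123 in KO and 57.7, 90.4 and 114 in WT, which overlapped. Its lowest and highest values were both on KO arrays.

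Beside Cxcl13, the summed signal of 9 B cell and plasma cell markers ran from 1089 to 9051 in KO and from 675 to 21509.8 in WT, high on KO replicate 2 and on WT replicate 3 alone. Of the 9 markers 5 were Present on all 6 arrays, among them Jchain, Ms4a1 and Cd79b, whereas Pax5 and Tnfrsf17 were Present on 0. The groups separated for 0 of 6 tested markers, where 12.7% of all genes had every KO array above every WT array and 20.5% below. The part of these markers in the Cxcl13 values was not tested. Cxcr5, the receptor of Cxcl13, followed the same arrays, with 85.6, 169 and 84.9 in KO and 60.7, 40.7 and 545 in WT. Of the lymphotoxin and follicular stroma genes, the signals and cells that sustain Cxcl13 in lymphoid tissue, 4 of 11 listed were tested and 0 were called, where 0.0352% of all genes were. Tnfsf13b, the B cell survival factor BAFF, gave 224, 218 and 206 in KO and 67.8, 74.6 and 109 in WT, a difference of 1.40 (SE 0.24, adjusted p = 0.13), and it was Present on 3 KO arrays and 1 WT array. The receptor genes Tnfrsf1b and Ltbr and the lymphotoxin gene Ltb differed by 0.81, 0.28 and 0.53, and only Tnfrsf1b did not overlap.

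KO replicate 3 set the ligands apart from each other. Its log2 signal minus the mean of KO replicates 1 and 2 was 1.90 for Cxcl10, 1.58, 1.49 and 1.49 for Cxcl1, 1.26 for Cxcl12 and 1.12 for Cxcl3. It was 0.88 for Ppbp, 0.78 for Cxcl14 and 0.60 for Cxcl2. Cxcl16 (0.18 and 0.32), Cxcl9 (0.04 and -0.23) and Cxcl13 (-0.26) were near the other KO arrays. An excess of at least 1 was seen in 6 of the 14 tested ligand probe sets and in 6.6% of all tested probe sets, where the median excess was -0.04. The header code and the sample cannot be told apart on this array.

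**Figure D3:**
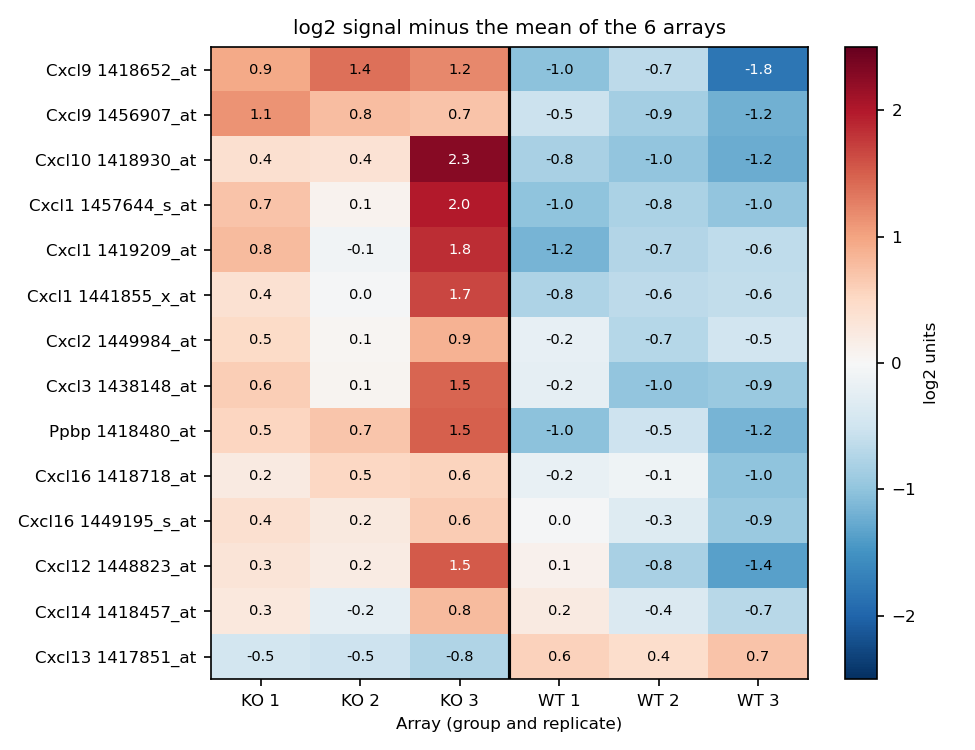
Log2 signal of the 14 tested CXC ligand probe sets (rows) on each array (columns, KO arrays left of WT arrays) minus the mean of the 6 arrays, printed in each cell and coloured red above and blue below it. The column of KO replicate 3 is the darkest red for Cxcl10 and the 3 Cxcl1 probe sets, the 3 KO columns are closer to each other for Cxcl9 and Cxcl16, and Cxcl13 runs the other way.

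Profiles were compared by the root mean square (RMS) difference of log2 signals centred over the 6 arrays, a description without a test, in which the group difference and KO replicate 3 are shared by many genes. Probe sets of the same gene lay 0.18 to 0.27 apart for Cxcl1, 0.18 for Cxcl16, 0.46 for Cxcl9, 0.40 for Cxcl14, 0.88 for Cxcl13 and 0.97 to 1.71 for Cxcl12. Between genes, Cxcl1 (1457644_s_at) and Cxcl10 were 0.26 apart, within the range between the Cxcl1 probe sets, and the other Cxcl1 probe sets were 0.43 and 0.42 from Cxcl10, while Cxcl9 (1418652_at) and Cxcl10 were 0.71 apart.

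Among 11344 genes with 1 probe set each, the profiles nearest to Cxcl9 were those of Slamf8, a myeloid surface receptor, at an RMS of 0.32, Col12a1, a fibril-associated collagen, at 0.40, and Ly6i at 0.41, where the median gene was 1.30 away. Nearest to Cxcl2 were Wfdc17, a secreted protein of macrophages, at 0.04, Pkib, an inhibitor of protein kinase A, at 0.04, and Cd300ld, a myeloid receptor, at 0.05 (median 0.66). Wfdc17 gave 40316, 31110 and 50944 in KO and 25746, 17345 and 20864 in WT, in the same order of arrays as Cxcl2. The nearest to Cxcl13 were Strbp at 0.08, Acpp at 0.10 and Rpap2 at 0.13 (median 0.60), and to Cxcl12 they were Map3k8, a kinase of inflammatory signalling, at 0.23, Arfgef3 at 0.23 and Fyb, a T cell and myeloid adaptor, at 0.24 (median 1.01).

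The receptors of the ligands other than Cxcr6 gave smaller differences. Cxcr2, the receptor of the ELR ligands, read 503, 323 and 767 in KO and 224, 239.5 and 388 in WT. It was Present on all KO arrays and on no WT array, so it entered the test through KO, the group where it is high. WT replicate 3 lay above KO replicate 2, and the log2 difference of 0.86 (limma adjusted p = 0.246) was 0.55 without KO replicate 3. Cxcr3, the receptor of Cxcl9 and Cxcl10, gave 223, 308 and 319 in KO and 295, 226 and 294 in WT. These groups overlapped, and the difference of 0.05 (SE 0.23, 95% interval -0.49 to 0.60) was small next to that of its ligands. Cxcr4 and Ackr3, which bind Cxcl12, differed by 0.77 and 0.25 (adjusted p = 0.276 and 0.534). Ackr1, which takes up inflammatory chemokines on venules and red cells, differed by 0.45. Cxcr3, Cxcr5, Ackr1 and the called Cxcr6 probe set are outside that rule too and are given for their role. Cxcr1 was not analysed here.

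Of the genes that act upstream of the interferon-induced ligands or answer to the same cytokine, 1 passed the test. Ifng itself, the cytokine of T cells and NK cells, rose, with 446, 504 and 546 in KO and 45.4, 76.5 and 82.3 in WT. No KO array came near a WT array, and the log2 difference was 2.91 (SE 0.27, limma adjusted p = 0.0479), where limma called 0.0264% of all genes higher. Leaving out any 1 array ended the call (adjusted p = 0.0762 and a difference of 2.85 without KO replicate 3). Of 19 tested genes of 20 listed in interferon gamma signalling, 12 had an unadjusted p under 0.05 and were higher in KO and 0 were lower, against 8.88% and 11.8% of all genes. The list's median difference was 0.71 (0.80 without KO replicate 3), beside -0.10 over all genes. Gbp2, an interferon-induced GTPase, Psmb9, an immunoproteasome subunit, and Cd274, which encodes PD-L1, differed by 1.62, 1.24 and 2.20 (adjusted p = 0.107, 0.13 and 0.131), each with all KO arrays above all WT arrays. Beside them, the summed signal of 12 T cell and NK cell markers was 15025 to 21077 in KO and 7167 to 9805 in WT without overlap. Cd4 was Present on 0 arrays. Of 11 tested markers 7 had every KO array above every WT array, against 12.7% of all genes. Cd3e, 1 of the 7 and outside the naming rule, was Present on 3 KO arrays and 1 WT array. It thus entered the test through KO, the group where it is high. The part of these markers in the Cxcl9, Cxcl10 and Ifng values was not tested.

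Among the inputs of the NF-kB-driven ligands, the 4 genes of smallest p were all highest on KO replicate 3. Il1b, which induces Cxcl1 and Cxcl2, gave 22351, 23951 and 54069 in KO and 9673, 9867 and 9561 in WT. The WT arrays were nearly equal and KO replicate 3 was far above both other KO arrays, with a difference of 1.66 (SE 0.35, adjusted p = 0.14) and 1.25 without KO replicate 3. Il1a, the related alarm cytokine, gave 424, 376 and 15050.3 in KO and 74.5, 67.5 and 59.9 in WT. It was Absent on all WT arrays and entered the test through its KO calls, the group where it is high. The fold of at least 19.97 in KO (adjusted p = 0.175) rests on KO replicate 3, since without it the log2 difference was 2.57 and not 4.32. Nfkbiz, a nuclear cofactor of NF-kB, and Il17ra, the IL-17 receptor, differed by 1.77 and 1.17 (1.28 and 0.91 without KO replicate 3). In all, 0 of 19 tested genes of the 20 in this list were called (0.0352% of all genes), and 12, Il1a among them, had an unadjusted p under 0.05 with higher values in KO (8.88% of all genes). The median difference was 0.96 (0.64 without KO replicate 3), beside -0.10 over all genes. Macrophage markers summed to 122834 to 171192 in KO and 90257 to 117320 in WT without overlap, and neutrophil markers, which include Cxcr2 and Mmp8, to 183702 to 261835 in KO and 76695 to 306428 in WT with overlap. Of 12 macrophage markers 5 had every KO array above every WT array and 1 below, against 12.7% and 20.5% of all genes. The median log2 difference of the macrophage markers was 0.40. S100a8 and S100a9 were the largest terms of the neutrophil sum on every array. All 10 neutrophil markers had a difference above 0, as had 4783 of all 11357 genes. The median of the 10 was 1.67, but 7 of them overlapped between the groups. The other 3 had every KO array above every WT array, against 12.7% of all genes. Ngp gave 8394, 40685 and 19159 in KO and 1154, 1055 and 51534.5 in WT, with WT replicate 3 the highest array. Its difference was 2.23 (SE 1.45). Dendritic cell markers summed to 15324 to 19596 in KO and 18902 to 24498 in WT, with Xcr1 Present on 0 arrays. Fscn1 made up most of the WT sums and was the 1 of 7 tested markers with every KO array below (20.5% of all genes). In contrast 3, among them Itgax and Cd83, had every KO array above (12.7% of all genes), and the median of the 7 was 0.46. Adipocyte markers summed to 1092 to 1925 in KO and 932 to 1079 in WT, with Lep and Cidec Present on 0. Fabp4 made up most of the adipocyte sum on every array, and its own groups overlapped. The part of these cell types in the ELR ligand values was not tested.

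**Figure D4:**
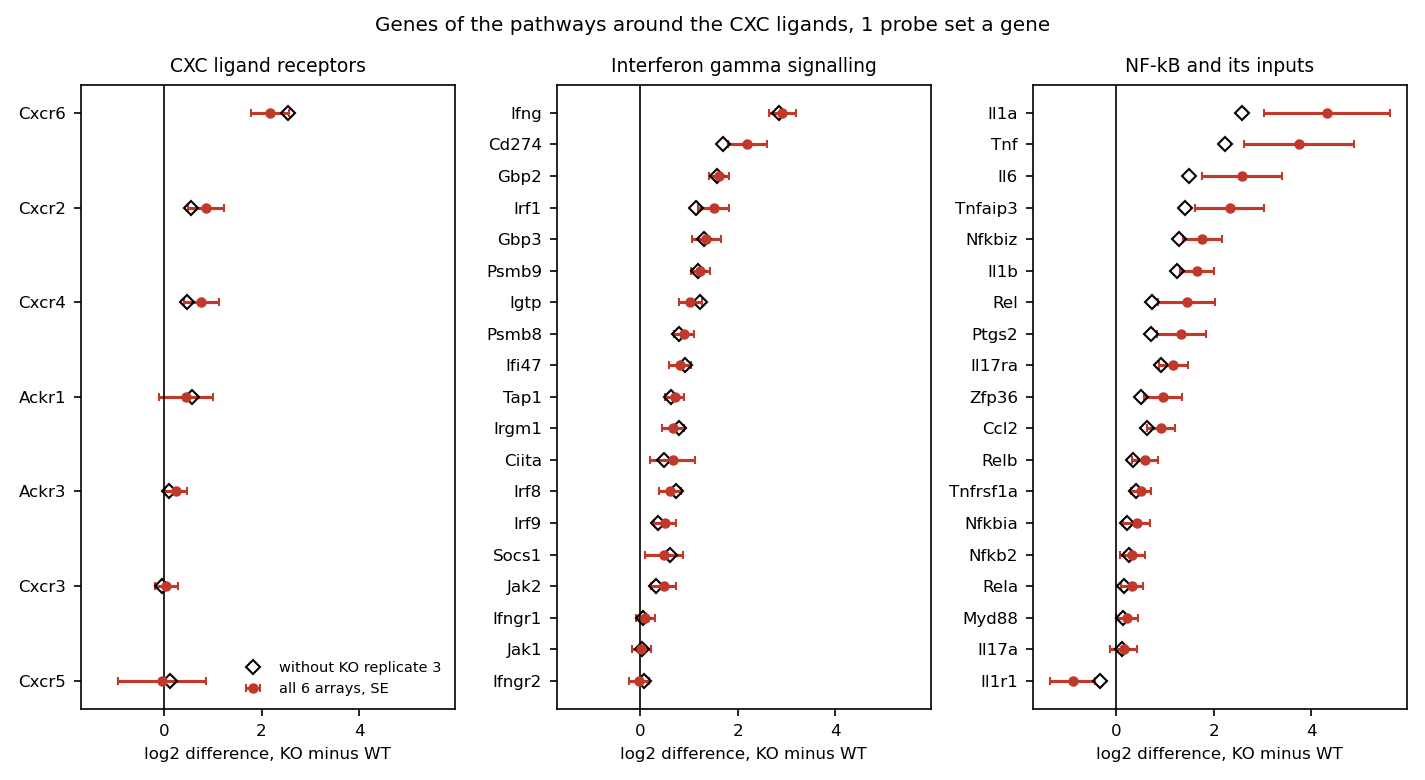
Log2 difference, KO minus WT (x axis), of each tested gene of 3 lists, the receptors, interferon gamma signalling and the NF-kB inputs, with 1 probe set a gene. Filled points with SE bars use all 6 arrays and open diamonds leave out KO replicate 3, which moves Il1a and Tnf far more than Ifng or Gbp2.

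The authors' deposited table held 3 of the 18 ligand probe sets among its 1554. The authors' deposited table gave signed folds of -3.155 for Cxcl9 (1418652_at), -3.244 for Cxcl10 and -2.729 for 1457644_s_at. It states no direction for its sign, and all 1554 rows have the sign opposite to KO minus WT in the array files. The smallest absolute fold in the authors' deposited table was 2.401. The folds of KO over WT found here were 5.07 for Cxcl9 (1418652_at), 4.07 for Cxcl10 and 3.6 for 1457644_s_at. The sizes therefore differed as well as the sign.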

How the data were processed

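Biotinylated cRNA was made from total RNA of the cancer stroma, per the labels' protocols, and hybridised to 1 Mouse430_2 array per sample. For every probe set the authors deposited its linear signal intensity with a call of Present, Marginal or Absent, scaled per array to a target value of 500, with alpha1 0.05, alpha2 0.065 and tau 0.015, per the expression report filed for 1 array. The fold score in the authors' deposited table came from a pathway program, per the file headers. Here the log2 of the signals was fitted in R 4.3.3 by limma 3.58.1 (two-sided, lmFit then eBayes, without covariates) over 22063 probe sets, after leaving out 64 control probe sets, and adjusted by Benjamini-Hochberg over all of them. The method was tested on simulated data with independent noise and no outlying array, so that test does not cover an array that departs as KO replicate 3 did. SE and 95% intervals are limma's, and "at least" marks a fold against a group with no Present call. The annotation gave 34958 probe sets 1 symbol, 932 several and 9211 none. Where 1 probe set stands for a gene, it is the tested one with the highest mean. No label says that samples came from separate processing, and p-values therefore reflect only how these 6 arrays spread, which may be technical, and the number of arrays limits the precision. The members, the 6 pathway lists, the 11 marker lists and the naming rule were chosen with earlier results of these data known. Named are the 10 ligands, Pdia4, the up to 4 genes of smallest p per pathway list, the 3 profiles nearest to Cxcl9, Cxcl2, Cxcl13 and Cxcl12, and of marker lists the genes Present on 0 arrays and the up to 3 of highest mean. Alternatives were other scalings, filters, variance models, a pseudocount of 50, a replicate block and leaving out each array.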

Additional observations from a re-analysis of the deposited data

How the results depend on the processing

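All 222 recomputed differences of tested ligand probe sets, over 16 alternatives, kept their direction, and 3 had an adjusted p under 0.05. Much of that agreement was fixed in advance. The filters, the replicate block, the trended robust prior and the series value table, which holds the same signals, leave each difference unchanged. Leaving out 1 array cannot reverse groups that do not overlap, as held for all tested ligand probe sets but that of Cxcl14. The main comparison called 0 ligand probe sets higher, a trended robust variance prior 1, and 50 added to the signal 2. Without a filter 2 ligand probe sets were lower at an unadjusted p under 0.05 and 2 lay below WT on all KO arrays, and among probe sets Present on all 6 arrays 0 and 0, against 1 and 1, because these filters add a Cxcl12 probe set that is Absent throughout or drop that of Cxcl13. Of listed pathway genes 1 was called higher, but 0 with quantile normalization, 75th percentile scaling, cyclic loess, no filter, Present on all 6 arrays or a replicate block, 2 with array weights, 3 with the trended robust prior, 2 with 50 added, 3 with the mean over a gene's probe sets, and 0 to 0 with 1 array left out. Leaving out 1 array gave 0 to 1 listed genes lower at an unadjusted p under 0.05 (1 without KO replicate 1), against 0. Over all tested probe sets 6 were called, 0 under quantile normalization, cyclic loess, no filter, Present on all 6 arrays and the replicate block, 1 with 75th percentile scaling, 19 with array weights, 27 with the trended robust prior, 24 with 50 added, and 0 to 2 with 1 array left out. The cause was not tested. Samples that share a replicate number did not deviate together (r = 0.16, 0.03 and -0.10), so the numbers were not taken as pairs. With the replicate block Cxcl9 (1418652_at) kept a difference of 2.34 with a limma adjusted p of 0.187. The largest shift of the all-probe-set median was 0.10, without a filter, and 75th percentile scaling put 52.8% of them above 0, against 46.6%. Low signals limit Cxcl13 and Cxcl12, whose other probe sets are near or below detection.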

Other observations

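Of the ligand genes of chromosome 5, all but Cxcl13 lie in 2 groups, and their neighbours did not all follow them. Cxcl13, the 1 ligand with a tested probe set lower on all KO arrays, lies apart from both. In RefSeq order (GRCm38.p6) the first group runs Cxcl5, Ppbp, Pf4, Cxcl3, Cxcl15, Cxcl1 and Cxcl2. Mthfd2l, a mitochondrial folate enzyme and the next gene measured after Cxcl2, had a log2 difference of -0.69 (SE 0.25, limma adjusted p = 0.209), with each KO array below each WT array, whereas all 6 tested ligands of the group had differences above 0. In the second group, Art3 lies between Cxcl9 and Cxcl10 and differed by -0.83 (SE 0.41, adjusted p = 0.287) with overlapping groups. Naaa, a lysosomal amidase beside the second group, differed by 0.88 (SE 0.19, adjusted p = 0.145), with each KO array above each WT array, and Sdad1, Nup54 and Scarb2 differed by 0.18, -0.24 and -0.38 with overlap. None of these passed the test, and they were chosen for their position after the values were seen.

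The 3' to 5' signal ratio of the beta-actin control probe sets, a sign of RNA quality, was 1.99, 1.51 and 1.53 in KO and 4.26, 1.66 and 2.70 in WT. It was highest on WT replicate 1, and its part in the ligand values was not tested. Tnf, an inducer of several CXC ligands that is outside the naming rule and was chosen after its values were seen, gave 1282, 1486 and 32802 in KO and 293, 291 and 301 in WT. KO replicate 3 was far above all other arrays, as it was for Il1a, and the log2 difference was 3.75 with it and 2.23 without it.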
